A study of Mus musculus with 3 samples.

Results

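The sodium-calcium exchangers described here are encoded by 2 gene families, the NCX genes Slc8a1, Slc8a2 and Slc8a3 and the NCKX genes Slc24a1 to Slc24a5. The rows of the count table whose symbol was one of these 8 names were taken. All 8 were listed, among 20937 gene rows, and all 8 had enough counts to be tested. The RNA came from the whole incisor enamel organ of male mice aged 4 weeks, with 1 library per genotype. Stim1 cKO was Stim1 fl/fl Cre+, Stim1 HT was Stim1 fl/wt Cre+ and Stim1 Ctrl was Stim1 fl/fl Cre-, so that floxed Stim1 alleles were present in all 3. The Cre was AmelX-iCre, which is driven by the amelogenin promoter and is active in ameloblasts. Deletion was thus aimed at ameloblasts, and whether Stim1 stayed intact in other cell types of the tissue was not tested here.

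NCX proteins carry calcium out of the cell in exchange for sodium, and NCKX proteins do so by also moving potassium. Each depends on the sodium gradient that the Na,K-ATPase maintains. In maturation-stage ameloblasts, NCKX4, the product of Slc24a4, is known as the exchanger that moves calcium toward the forming enamel, and its loss causes amelogenesis imperfecta. The other members are best known elsewhere: NCX1 in heart and many other tissues, NCX2 in brain, NCX3 in brain and skeletal muscle, NCKX1 in rod photoreceptors, NCKX2 in cones and neurons, NCKX3 in brain and smooth muscle, and NCKX5 in pigment cells.

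The bases upstream of 4 exchanger genes are shown because these were the members whose levels in Stim1 cKO lay over 2-fold from both controls. Slc24a4, Slc24a1 and Slc24a2 were higher and Slc8a3 was lower. Each run is the 250 bases before a RefSeq transcription start on GRCm38.p6, written 5′ to 3′ on the strand of the gene. Capitals mark GGAAA, the core of sites for NFAT, a factor activated by store-operated calcium entry, TAATCC, the core of sites for the photoreceptor factor CRX, and CAGCTG, an E-box found in muscle genes, each on either strand.
Slc24a4, chr12:102128477-102128726, plus strand: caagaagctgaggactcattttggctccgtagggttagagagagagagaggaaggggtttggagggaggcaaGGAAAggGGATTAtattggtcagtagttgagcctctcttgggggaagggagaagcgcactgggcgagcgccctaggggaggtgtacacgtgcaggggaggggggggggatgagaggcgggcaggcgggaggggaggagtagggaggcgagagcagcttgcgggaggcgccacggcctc
Slc24a1, chr9:64951621-64951870, minus strand: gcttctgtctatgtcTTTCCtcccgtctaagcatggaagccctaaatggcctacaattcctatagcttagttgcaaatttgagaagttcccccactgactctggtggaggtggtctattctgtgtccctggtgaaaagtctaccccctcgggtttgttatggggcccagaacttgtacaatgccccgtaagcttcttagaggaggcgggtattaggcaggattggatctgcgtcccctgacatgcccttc
Slc24a2, chr4:87230541-87230790, minus strand: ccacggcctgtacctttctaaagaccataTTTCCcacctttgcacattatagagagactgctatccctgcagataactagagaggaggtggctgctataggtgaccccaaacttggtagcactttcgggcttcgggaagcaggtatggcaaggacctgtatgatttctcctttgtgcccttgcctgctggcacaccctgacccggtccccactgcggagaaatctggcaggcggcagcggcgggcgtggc
Slc8a3, chr12:81333181-81333430, minus strand: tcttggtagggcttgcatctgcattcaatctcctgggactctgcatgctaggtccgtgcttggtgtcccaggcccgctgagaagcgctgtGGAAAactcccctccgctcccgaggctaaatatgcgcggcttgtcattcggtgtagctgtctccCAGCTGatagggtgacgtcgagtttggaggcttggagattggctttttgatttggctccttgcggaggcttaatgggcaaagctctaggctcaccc
The searched windows ran from 250 bases before to 50 bases after the start. GGAAA was found in 61.3% of all 32851 RefSeq promoter windows, TAATCC in 7.06% and CAGCTG in 16.3%. Each of the 4 stretches shown held GGAAA once, at -178 from the start in Slc24a4, -235 in Slc24a1, -221 in Slc24a2 and -160 in Slc8a3. The stretch of Slc24a4 also held TAATCC, on the opposite strand at -171, while that of Slc8a3 held CAGCTG at -96. Slc24a2 has a further annotated start, whose window held GGAAA at 10 bases after the start. GGAAA was also found in the windows of Slc8a1, Slc8a2 and Slc24a5, genes that were not over 2-fold from both controls. The window of Slc24a5 held CAGCTG as well. Both annotated windows of Slc24a3 held none of the 3 motifs. GGAAA was thus not particular to the genes shown. These matches describe letters and were not tested as binding sites.

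Total counts were 28265960 in Stim1 Ctrl, 20216507 in Stim1 HT and 21496136 in Stim1 cKO. Levels are given as CPM, counts scaled to the library total with edgeR's TMM factors, and levels of different genes are compared as CPM per kilobase of annotated exon. Brackets give 95% intervals that cover counting error only, since the spread between mice of 1 genotype could not be estimated from single libraries. Stim1 itself was at 186, 129 and 72.8 CPM in Stim1 Ctrl, Stim1 HT and Stim1 cKO. In bulk RNA, fewer cells of a type and less RNA per cell cannot be told apart. The libraries also differed in tissue markers: the summed level of 4 secretory ameloblast markers was 23113, 31173 and 3584 CPM in the same order, that of 12 skeletal muscle markers was 23140, 18742 and 4633 CPM, and 7 of 9 rod photoreceptor markers were listed, with a sum of 12.6, 17.2 and 967 CPM. Enamel genes that define ameloblasts were thus present in each library, as were markers of other cell types.

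Of the 8 exchangers, 5 were above both controls in Stim1 cKO, 1 was below both and 2 lay between them. Of all genes tested, 43.6% were above both controls and 42.1% below both. Over 2-fold above both controls were 3 exchangers, Slc24a1, Slc24a2 and Slc24a4, beside 19.1% of all genes. Slc8a3 was the 1 exchanger over 2-fold below both, as were 8.23% of all genes. The summed level of the 5 NCKX genes was 51.4 CPM in Stim1 Ctrl, 57.1 CPM in Stim1 HT, against 136 CPM in Stim1 cKO. The summed NCX level ran the other way, at 75.9, 60.4 and 41.7 CPM. Slc8a3 was the only NCX gene below both controls in Stim1 cKO, while Slc8a2 was above both and Slc8a1 lay between them.

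**Figure D1:**
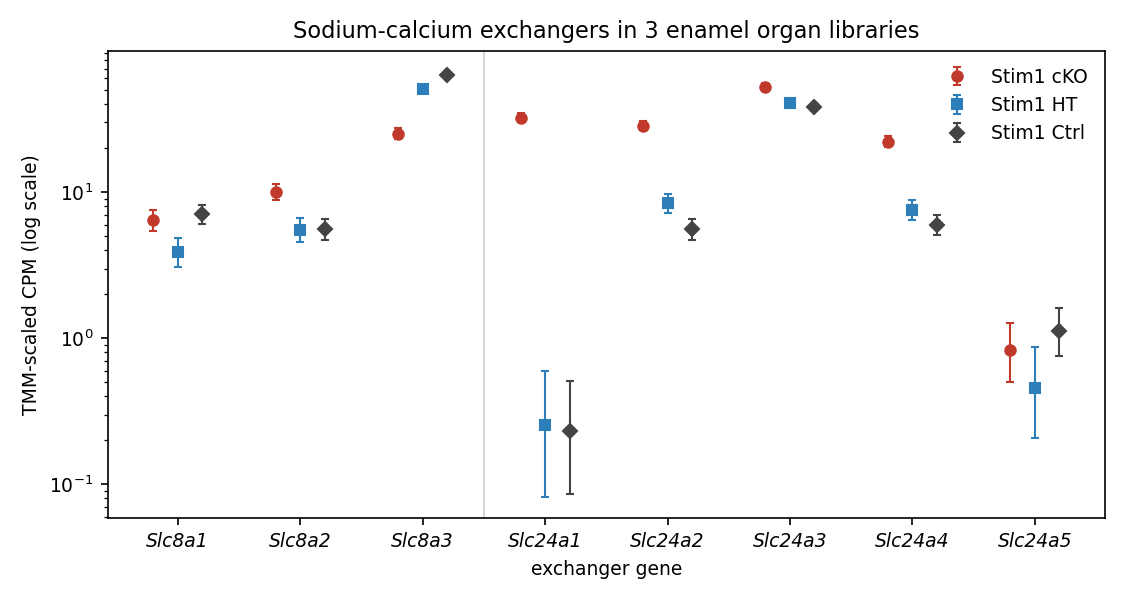
Expression level of each exchanger gene in the Stim1 Ctrl, Stim1 HT and Stim1 cKO libraries, as TMM-scaled CPM on a log axis, with bars for the 95% counting interval. Slc24a1 stands at 32.3 CPM in Stim1 cKO and at 0.254 and 0.233 CPM in the controls, Slc8a3 is lowest in Stim1 cKO, and the vertical line parts the NCX from the NCKX genes.

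Stim1 cKO was tested against the grouped controls across all 18702 genes with enough counts, with calls at an adjusted p under 0.01 and a fold change over 2. In edgeR's quasi-likelihood test, 0 of the 8 exchangers were called, where 0.0749% of all genes were. An unadjusted p under 0.05 was seen for Slc24a1, Slc24a2, Slc24a4 and Slc8a3, 4 of the 8, and for 31.9% of all genes. With an adjusted p under 0.05 and no fold change minimum, edgeR passed 2 exchangers, Slc24a1 and Slc24a2, and 9.68% of all genes. DESeq2 called 2 exchangers, Slc24a1 and Slc24a2, and 10.6% of all genes. Both calls were in the higher direction, where DESeq2 called 5.92% of all genes, and 0 exchangers were called lower, where it called 4.71%. The median log2 fold change was 0.64 over the 8 exchangers, 0.22 over the 3 NCX genes, 1.71 over the 5 NCKX genes and -0.01 over all genes tested. The only spread these tests could use was that between the controls, whose genotypes are not the same.

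Slc24a4, the NCKX4 gene, lies on chromosome 12 from 102128733 to 102267091 on the plus strand of GRCm38. It had 154 counts in Stim1 Ctrl, 149 in Stim1 HT and 536 in Stim1 cKO, which are 5.98 CPM (5.08 to 7.01), 7.56 CPM (6.40 to 8.88) and 22.1 CPM (20.3 to 24.1). Stim1 cKO was thus the high library, and the counting intervals of the controls overlapped. The level in Stim1 cKO was 2.93-fold that in Stim1 HT (2.44 to 3.53) and 3.70-fold that in Stim1 Ctrl (3.09 to 4.46). The log2 fold change against both controls was 1.71 (SE 0.543 in DESeq2), with an adjusted p of 0.0514 in edgeR and 0.0136 in DESeq2, so it was not called.

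Slc24a4 was above both controls in Stim1 cKO, as were 6 of 7 markers of maturation-stage ameloblasts, 4 of them by over 2-fold. The summed level of the 7 markers was 214 CPM in Stim1 Ctrl, 437 CPM in Stim1 HT, against 1203 CPM in Stim1 cKO. In Stim1 HT this sum was 2.04-fold that in Stim1 Ctrl, while Slc24a4 was 1.26-fold. Slc24a4 had, for every 1000 counts of these markers, 28.0 counts in Stim1 Ctrl (23.9 to 32.9), 17.3 in Stim1 HT (14.7 to 20.4), against 18.4 in Stim1 cKO (16.9 to 20.0). On this scale Stim1 cKO was close to Stim1 HT and below Stim1 Ctrl. The place of Stim1 cKO on this scale depends in part on Car6, 1 of the 7. Car6 gave 83 of the 5500 marker counts in Stim1 Ctrl and 194 of 8599 in Stim1 HT, against 5613 of 29131 in Stim1 cKO. It is also made by salivary glands, and 7 salivary and lacrimal gland markers summed to 27.7, 354 and 1137 CPM in Stim1 Ctrl, Stim1 HT and Stim1 cKO. The single maturation markers gave different orders. Per 1000 counts of Wdr72, a gene needed for enamel maturation, Slc24a4 had 2852 counts in Stim1 Ctrl, 1620 in Stim1 HT and 1279 in Stim1 cKO. For Klk4, the protease of the maturation stage, these values were 470, 251 and 765 counts. Stim1 cKO was thus lowest relative to Wdr72 and highest relative to Klk4. Against 5 markers of the enamel epithelium as a whole, taken per 1000 counts, Slc24a4 had 3.42 in Stim1 Ctrl (2.92 to 4.00), 4.07 in Stim1 HT (3.47 to 4.78), against 7.86 in Stim1 cKO (7.22 to 8.56). The part of stage and cell makeup in the level of Slc24a4 was not tested.

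Slc24a1, the rod exchanger gene, lies on chromosome 9 from 64922861 to 64951607 on the minus strand. It had 6 counts in Stim1 Ctrl, 5 in Stim1 HT and 781 in Stim1 cKO, or 0.233 CPM (0.0856 to 0.507), 0.254 CPM (0.0824 to 0.592) and 32.3 CPM (30.0 to 34.6). The controls were just above 3 counts, taken as the limit of detection, which equals 0.117 CPM for Stim1 Ctrl and 0.152 CPM for Stim1 HT. Stim1 cKO was 127-fold above Stim1 HT (54.2 to 393) and 138-fold above Stim1 Ctrl (63.3 to 378). Against both controls the log2 fold change was 7.02 (SE 0.722 in DESeq2), with an adjusted p of 0.0113 in edgeR, just over the threshold, and of 4.18e-20 in DESeq2.

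Each of the 7 listed rod markers, Gnat1, Pde6a, Cngb1, Sag, Nrl and Rom1 among them, was over 2-fold above both controls in Stim1 cKO. Pde6b and Cnga1 were not listed in the table. Gnat1, which encodes the alpha subunit of the rod G protein, had 5, 2 and 4294 counts in Stim1 Ctrl, Stim1 HT and Stim1 cKO. Slc24a1 had, per 1000 counts of the rod markers, 18.5 counts in Stim1 Ctrl (8.43 to 40.7), 14.7 in Stim1 HT (6.26 to 34.7), against 33.4 in Stim1 cKO (31.1 to 35.8). These intervals overlapped, so a difference between the libraries was not detectable on this scale, in which the 127-fold and 138-fold gaps in CPM were no longer seen. The nearest genes in pattern to Slc24a1, by the distance between centred log2(CPM + 1) over the 3 libraries, were Nr2e3 at 0.0876, Impg2 at 0.0885 and Gm14743 at 0.138. Nr2e3 is a transcription factor of rods, and Impg2 encodes a protein of the matrix around photoreceptors. Only Nr2e3 and Impg2 lay within 0.1, against 38 genes for Slc24a2 and 55 for Slc24a4. The part of rod RNA in the Slc24a1 level was not tested.

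Slc24a2, which encodes the exchanger of cones and neurons, lies on chromosome 4 from 86983124 to 87230477 on the minus strand. It had 143 counts in Stim1 Ctrl, 165 in Stim1 HT and 692 in Stim1 cKO, or 5.56 CPM (4.68 to 6.55), 8.38 CPM (7.15 to 9.76) and 28.6 CPM (26.5 to 30.8). The 3 intervals did not overlap, and Stim1 cKO was highest and Stim1 Ctrl lowest. Stim1 cKO was 3.41-fold above Stim1 HT (2.88 to 4.07) and 5.14-fold above Stim1 Ctrl (4.29 to 6.20). Its log2 fold change was 2.04 (SE 0.542 in DESeq2), with an adjusted p of 0.0405 in edgeR, which was over the threshold, and 0.00207 in DESeq2.

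All 7 neuron markers were listed and 5 of them, Snap25, Syt1, Syp, Stmn2 and Rbfox3, were over 2-fold above both controls in Stim1 cKO, while the neurofilament genes Nefl and Nefm were not. The summed level of the 7 neuron markers was 179, 206 and 843 CPM in Stim1 Ctrl, Stim1 HT and Stim1 cKO. In Stim1 Ctrl the highest of them were Nefm at 71.3 CPM and Nefl at 50.2 CPM, so these weigh heavily in that sum. Per 1000 counts of the neuron markers, Slc24a2 had 31.1 counts in Stim1 Ctrl (26.3 to 36.7), 40.6 in Stim1 HT (34.8 to 47.5), against 33.9 in Stim1 cKO (31.4 to 36.6), with intervals that overlapped between Stim1 cKO and each control. Set against Snap25 alone, a synaptic fusion protein gene, it had per 1000 counts 817, 494 and 236 counts. Relative to Snap25, Slc24a2 was thus lowest in Stim1 cKO. Of the 8 cone markers, 4 were listed (Opn1sw, Gnat2, Pde6h and Cnga3), with a sum of 1.24, 1.68 and 14.0 CPM, and Opn1mw, Arr3, Pde6c and Cngb3 were not listed. Per 1000 counts of the listed cone markers, Slc24a2 had 4469, 5000 and 2047 counts, again lowest in Stim1 cKO. The gene nearest in pattern to Slc24a2 was Adgrb1, an adhesion receptor gene expressed in brain, at a distance of 0.00930. The part of neuronal or cone RNA in the Slc24a2 level was not tested.

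**Figure D2:**
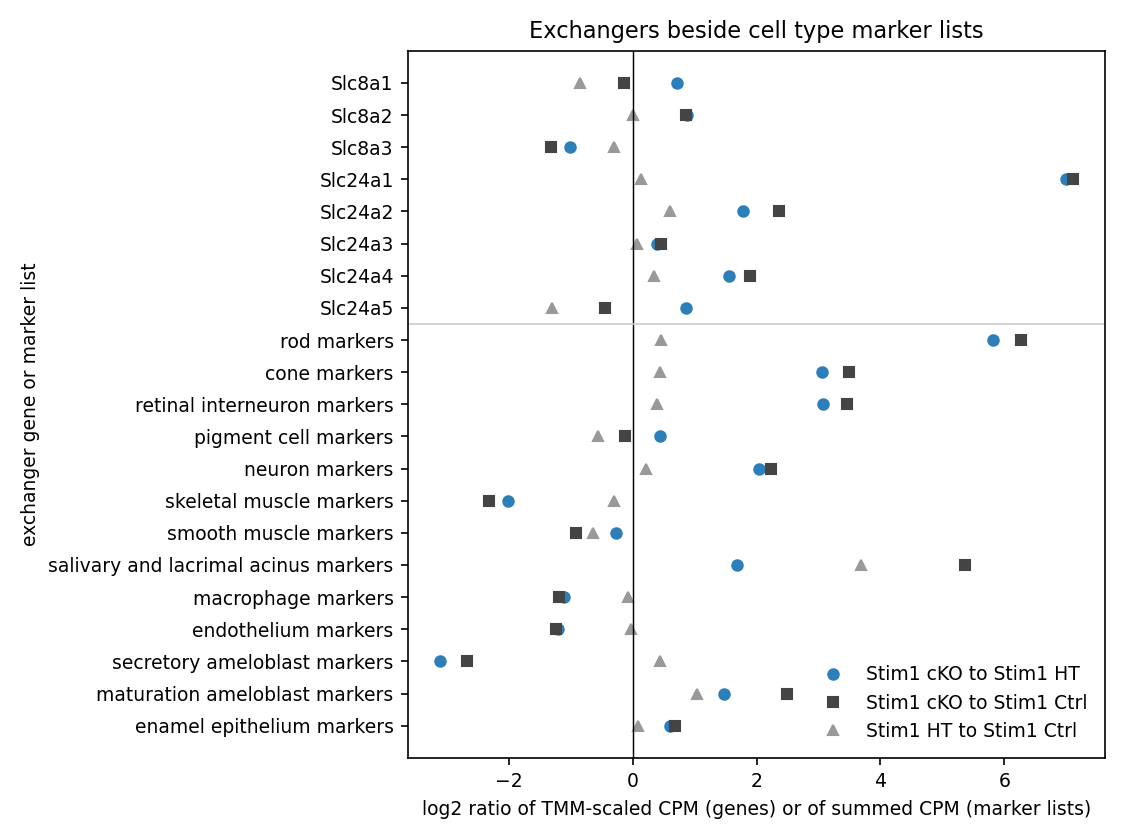
Log2 ratio of TMM-scaled CPM between pairs of libraries for each exchanger (above the line) and of the summed CPM of each cell type marker list (below it). Circles stand for Stim1 cKO to Stim1 HT, squares for Stim1 cKO to Stim1 Ctrl and triangles for Stim1 HT to Stim1 Ctrl. Slc24a1 (6.99 and 7.11) lies right of 0 with the rod markers (5.81 and 6.26), and Slc8a3 (-1.02 and -1.33) left of 0 with the skeletal muscle markers (-2.02 and -2.32).

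Slc24a3, which encodes the broadly expressed NCKX3, lies on chromosome 2 from 145167754 to 145642166 on the plus strand. It had 990 counts in Stim1 Ctrl, 797 in Stim1 HT and 1275 in Stim1 cKO, or 38.5 CPM (36.1 to 40.9), 40.5 CPM (37.7 to 43.4) and 52.7 CPM (49.8 to 55.6). The controls overlapped and Stim1 cKO was higher by 1.30-fold over Stim1 HT and 1.37-fold over Stim1 Ctrl. The log2 fold change of 0.42 did not pass the test (SE 0.368 in DESeq2, adjusted p of 0.268 in edgeR and 0.515 in DESeq2). Slc24a3 had, per 1000 counts of the enamel epithelium markers, 22.0 counts in Stim1 Ctrl, 21.8 in Stim1 HT and 18.7 in Stim1 cKO, so that on this scale Stim1 cKO was the lowest library. Relative to 1000 counts of the smooth muscle markers it had 42.2, 69.5 and 110 counts, with Stim1 cKO the highest.

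Slc24a5, whose product NCKX5 acts in the organelles of pigment cells, lies on chromosome 2 from 125068124 to 125088677 on the plus strand. It had 29 counts in Stim1 Ctrl, 9 in Stim1 HT and 20 in Stim1 cKO, or 1.13 CPM (0.755 to 1.62), 0.457 CPM (0.209 to 0.867) and 0.826 CPM (0.505 to 1.28). Stim1 cKO lay between the controls, and its log2 fold change was 0.04 (SE 1.74 in DESeq2, adjusted p of 0.975 in edgeR). Without Stim1 HT it was -0.45. Of the 2330 exon bases of Slc24a5, 921 also lie in exons of Myef2 on the opposite strand, and 37.8% of the windows of 50 bases along its transcripts occur in other genes, so its few counts are uncertain. The pigment cell markers, 8 of 9 listed without Rpe65, summed to 27.5, 18.6 and 25.2 CPM in Stim1 Ctrl, Stim1 HT and Stim1 cKO, but single markers of the list gave different orders, and the interval of Slc24a5 in Stim1 cKO overlapped those of both controls.

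Slc8a3, which encodes NCX3, lies on chromosome 12 from 81197915 to 81333180 on the minus strand. It had 1629 counts in Stim1 Ctrl, 1004 in Stim1 HT and 610 in Stim1 cKO, or 63.3 CPM (60.3 to 66.5), 51.0 CPM (47.9 to 54.2) and 25.2 CPM (23.2 to 27.3). The intervals were separate, with Stim1 cKO lowest. The level in Stim1 HT was 2.02-fold that in Stim1 cKO, and in Stim1 Ctrl it was 2.51-fold. Its log2 fold change was -1.18 (SE 0.389 in DESeq2), with an adjusted p of 0.0607 in edgeR and 0.0172 in DESeq2, so that it was not called. Of 12 skeletal muscle markers, 9 were over 2-fold below both controls in Stim1 cKO. Ryr1 was lower by less, Myh1 was level with Stim1 HT, and Myh4, a fast myosin gene, was above both controls at 29.1, 318 and 473 CPM in Stim1 Ctrl, Stim1 HT and Stim1 cKO. Slc8a3 had, per 1000 counts of these markers, 2.74 counts in Stim1 Ctrl (2.61 to 2.87), 2.72 in Stim1 HT (2.56 to 2.89), against 5.44 in Stim1 cKO (5.02 to 5.89). On that scale the controls were alike within counting error and Stim1 cKO was the highest, the reverse of the order in CPM. The part of muscle RNA in the Slc8a3 level was not tested.

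Slc8a1, the NCX1 gene, lies on chromosome 17 from 81373105 to 81738377 on the minus strand. It had 182 counts in Stim1 Ctrl, 77 in Stim1 HT and 155 in Stim1 cKO, or 7.07 CPM (6.08 to 8.18), 3.91 CPM (3.08 to 4.89) and 6.40 CPM (5.43 to 7.49). Stim1 HT was the low library, and the intervals of Stim1 cKO and Stim1 Ctrl overlapped. The log2 fold change against both controls was 0.22 (SE 0.771 in DESeq2, adjusted p of 0.810 in edgeR), and it was -0.14 without Stim1 HT. An antisense gene, AC122399.1, shares 296 exon bases with Slc8a1, of a union of 18807 bases. Endothelial markers, 5 of 5 listed, were lower in Stim1 cKO, with sums of 464, 454 and 195 CPM, an order that Slc8a1 did not follow.

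Slc8a2, the NCX2 gene, lies on chromosome 7 from 16129826 to 16161063 on the plus strand. It had 143 counts in Stim1 Ctrl, 109 in Stim1 HT and 244 in Stim1 cKO, or 5.56 CPM (4.68 to 6.55), 5.53 CPM (4.54 to 6.68) and 10.1 CPM (8.85 to 11.4). The controls were nearly equal and Stim1 cKO was 1.82-fold above Stim1 HT (1.45 to 2.30) and 1.81-fold above Stim1 Ctrl (1.47 to 2.25). The log2 fold change of 0.86 did not pass the test (SE 0.643 in DESeq2, adjusted p of 0.231 in edgeR and 0.416 in DESeq2). Per 1000 counts of the neuron markers, Slc8a2 had 31.1 counts in Stim1 Ctrl (26.3 to 36.7), 26.8 in Stim1 HT (22.2 to 32.4), against 12.0 in Stim1 cKO (10.5 to 13.6). Slc8a2 was thus lower in Stim1 cKO relative to these markers, whereas Slc24a2 on the same scale overlapped both controls.

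Stim1 HT and Stim1 Ctrl differ in 1 Stim1 allele and in Cre. No test between them was possible with single libraries, and their ratios were taken with counting intervals only. On the log2 scale, the ratio of Stim1 HT over Stim1 Ctrl was -0.01 for Slc8a2, 0.07 for Slc24a3 and 0.12 for Slc24a1, each with an interval that included 0. It was -0.86 for Slc8a1 (-1.26 to -0.46) and -0.31 for Slc8a3 (-0.43 to -0.20), both lower in Stim1 HT. It was 0.59 for Slc24a2 (0.26 to 0.93), higher in Stim1 HT. For Slc24a4 it was 0.34 (0.003 to 0.67), with a lower bound so close to 0 that a difference between the controls was uncertain. Slc24a5, at -1.30 (-2.57 to -0.18), was the 1 exchanger over 2-fold apart between these libraries, as were 13.5% of all genes. In 6 of the 8 exchangers, the gap from Stim1 cKO to the nearer control was larger than the gap between the controls, beside 59% of all genes. The exceptions were Slc8a1 and Slc24a5.

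**Figure D3:**
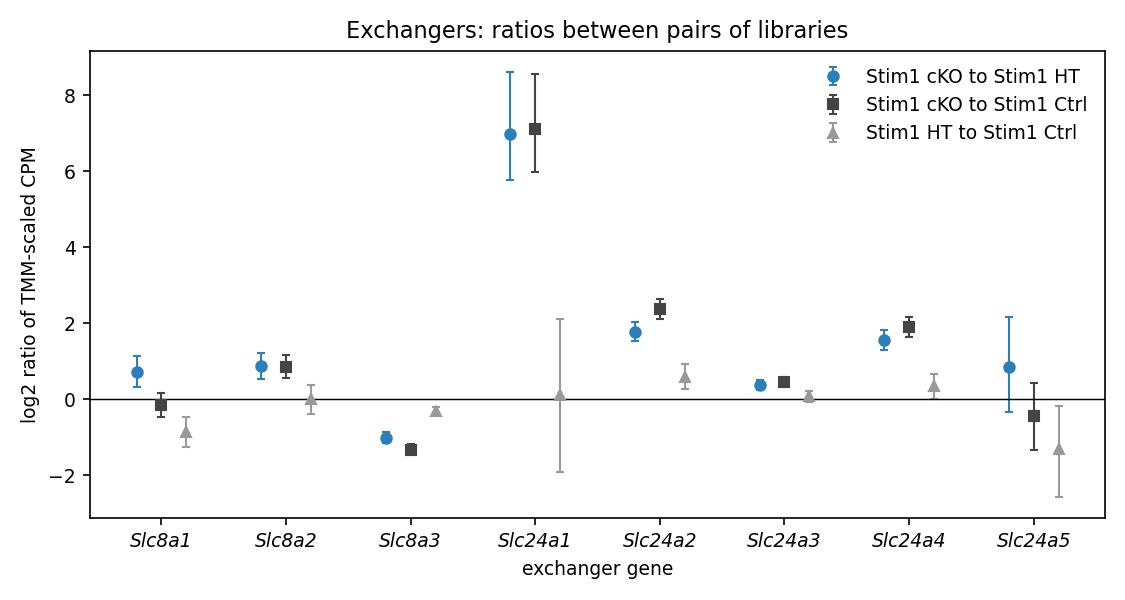
Log2 ratio of TMM-scaled CPM for each exchanger between Stim1 cKO and Stim1 HT (circles), Stim1 cKO and Stim1 Ctrl (squares) and Stim1 HT and Stim1 Ctrl (triangles), with 95% counting intervals. The triangles lie between -1.30 for Slc24a5 and 0.59 for Slc24a2, while the circles and squares of Slc24a1 lie at 6.99 and 7.11.

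Within the NCX family, Slc8a3 made up most of the level per exon length in each library. Its share was 89.2% in Stim1 Ctrl (88.0 to 90.3), 88.4% in Stim1 HT (86.7 to 89.9), against 67.7% in Stim1 cKO (64.9 to 70.4, Wilson interval). Slc8a2 took 7.94% in Stim1 Ctrl (6.78 to 9.27), 9.72% in Stim1 HT (8.13 to 11.6), against 27.4% in Stim1 cKO (24.7 to 30.4). Slc8a1, the gene with the greatest exon length of the 8, held 2.83%, 1.92% and 4.88% in the same order. The controls thus had nearly the same NCX makeup, and in Stim1 cKO the share of Slc8a3 was smaller and that of Slc8a2 larger than in either control, beyond counting error.

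Within the NCKX family, Slc24a3 was the leading gene in each library per exon length, and the other shares differed. Slc24a3 held 78.5% in Stim1 Ctrl (76.3 to 80.5), 77.3% in Stim1 HT (75.0 to 79.5), against 45.6% in Stim1 cKO (43.8 to 47.3). Slc24a1 held 0.417% in Stim1 Ctrl, 0.425% in Stim1 HT and 24.4% in Stim1 cKO (23.0 to 26.0). Slc24a4 held 12.3% in Stim1 Ctrl (10.6 to 14.3), 14.6% in Stim1 HT (12.6 to 16.9), against 19.3% in Stim1 cKO (17.9 to 20.8). Per exon length, the share of the ameloblast exchanger gene was thus larger in Stim1 cKO, though by less than its CPM. Without division by length, its shares in Stim1 cKO and Stim1 HT had overlapping intervals. Slc24a2 took 4.24%, 5.98% and 9.24%, and Slc24a5 took 4.51%, 1.71% and 1.40%. With Slc24a1 left out of the family, Slc24a4 held 12.4% in Stim1 Ctrl (10.7 to 14.3), 14.6% in Stim1 HT (12.6 to 16.9), against 25.6% in Stim1 cKO (23.8 to 27.5), and Slc24a3 held 78.8%, 77.6% and 60.3%. The difference between Stim1 cKO and the controls in these shares therefore did not rest on Slc24a1 alone.

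**Figure D4:**
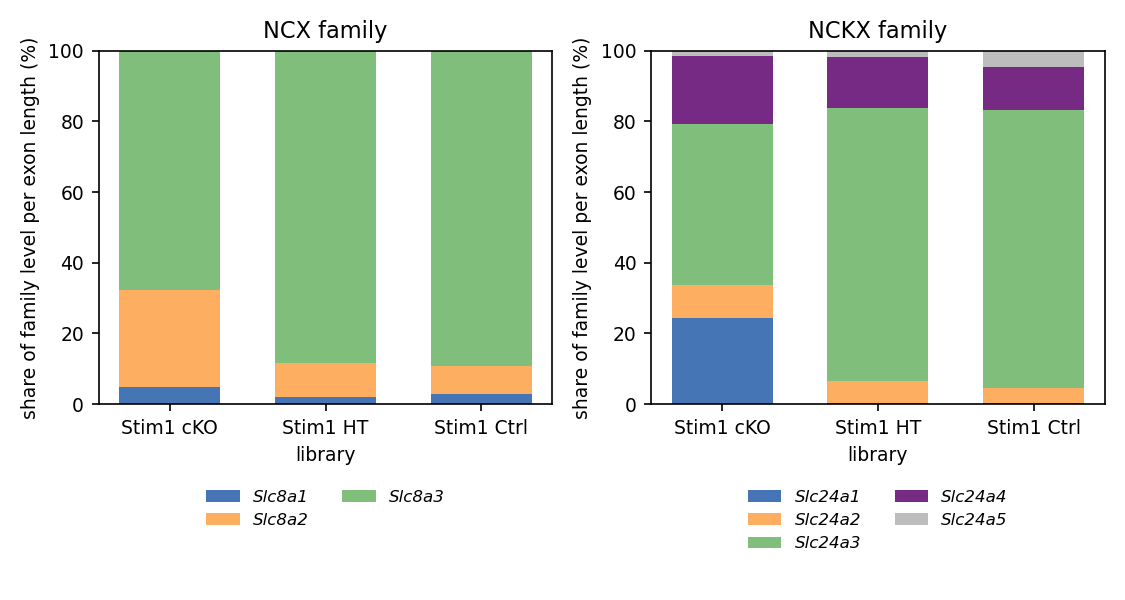
Share of each gene in the summed level per exon length of the NCX family (left) and the NCKX family (right), in percent, with 1 bar per library. Slc8a3 fills 67.7% of the NCX bar in Stim1 cKO and 89.2% in Stim1 Ctrl, and Slc24a1 fills 24.4% of the NCKX bar in Stim1 cKO and is not visible in the controls.

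The ratio of the NCKX to the NCX level, per exon length, was 0.807 in Stim1 Ctrl (0.753 to 0.865), 1.06 in Stim1 HT (0.977 to 1.15), against 3.63 in Stim1 cKO (3.38 to 3.89). The families were thus near balance in Stim1 HT, NCX led in Stim1 Ctrl and NCKX led in Stim1 cKO. In the order of single genes, Slc8a3 was the highest exchanger of Stim1 Ctrl at 11.9 CPM per kilobase, 1.41-fold above Slc24a3 (1.30 to 1.53). In Stim1 HT, Slc8a3 (9.56 CPM per kilobase) and Slc24a3 (8.87) did not differ beyond counting error. In Stim1 cKO, Slc24a3 led at 11.5 CPM per kilobase, followed by Slc24a1 at 6.19, Slc24a4 at 4.90 and Slc8a3 at 4.73, and the last of these neighbours did not differ (ratio 1.04, 0.921 to 1.17). Slc24a4 was the third gene in the order of each library, although in Stim1 Ctrl it could not be separated from Slc8a2 (ratio 1.25, 0.991 to 1.58). Slc24a1 was last in both controls. At the low end, Slc8a1 and Slc24a5 did not differ in Stim1 cKO or Stim1 HT, and in Stim1 Ctrl Slc24a5 and Slc24a2 and likewise Slc24a2 and Slc8a1 did not.

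The exchangers work beside other routes of calcium transport and depend on the sodium gradient, for which a list of 29 genes was examined. The list also held 5 genes of store-operated calcium entry, Stim1, Stim2, Orai1, Orai2 and Orai3, of which Stim1 is the gene deleted by design. All 29 were listed, and 28 were tested, the exception being Atp1a4. In edgeR 0 of the 28 were called, beside 0.0749% of all genes, while 9 had an unadjusted p under 0.05, beside 31.9% of all genes. Of these 9, 6 were higher and 3 were lower, and the lower genes were Atp1b4, Orai1 and Stim1 itself. DESeq2 called 7 of the 28, beside 10.6% of all genes, of which 6 were higher, Atp2b1, Atp2b2, Atp1b1, Fxyd2 and Fxyd7 among them, and 1, Atp1b4, was lower. Median log2 fold change over the list was 0.11, against -0.01 over all genes tested.

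Of the Na,K-ATPase genes, the beta subunit gene Atp1b1 was at 119, 182 and 464 CPM in Stim1 Ctrl, Stim1 HT and Stim1 cKO (log2 fold change 1.62, adjusted p of 0.0535 in edgeR and 0.000202 in DESeq2). Atp1b4, a relative of the beta subunits that is found in muscle, was at 428, 294 and 25.4 CPM (log2 fold change -3.83, adjusted p of 0.0183 in edgeR and 2.46e-22 in DESeq2). Atp1b1 was thus highest and Atp1b4 lowest in Stim1 cKO. Of its FXYD regulators, Fxyd7, known from brain, was at 3.30, 4.06 and 27.8 CPM and Fxyd2, known from kidney, at 2.45, 1.73 and 21.4 CPM. Fxyd7 was higher along with the neuron markers and Atp1b4 was lower along with the skeletal muscle markers, and the part of those cells in these levels was not tested.

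Among the calcium pumps and exchangers outside the 2 families, Atp2b2, the plasma membrane calcium pump known from neurons and hair cells, was at 2.84 CPM in Stim1 Ctrl, 2.49 CPM in Stim1 HT, against 31.7 CPM in Stim1 cKO, with a log2 fold change of 3.57 (adjusted p of 0.0154 in edgeR and 3.25e-09 in DESeq2). Slc8b1, which encodes the sodium-calcium exchanger of mitochondria, was at 24.4, 23.9 and 20.5 CPM and its log2 fold change of -0.23 did not pass the test (adjusted p of 0.571 in edgeR). Calb2, a calcium-binding protein gene, was at 0.583, 18.8 and 63.0 CPM, so that the controls were themselves far apart. Its log2 fold change of 2.71 did not pass the test (adjusted p of 0.261 in edgeR and 0.563 in DESeq2).

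**Figure D5:**
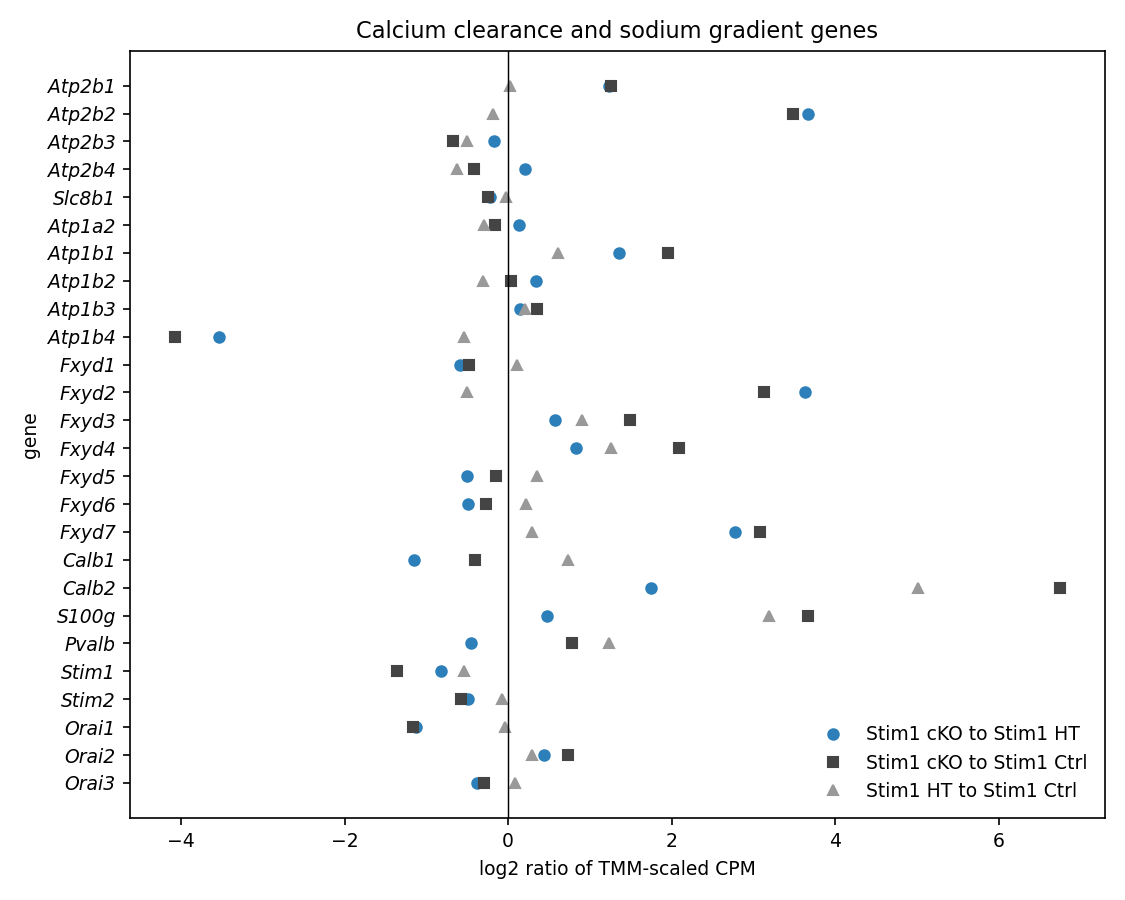
Log2 ratio of TMM-scaled CPM between pairs of libraries for genes of the calcium clearance, sodium gradient and store-operated entry list, with circles for Stim1 cKO to Stim1 HT, squares for Stim1 cKO to Stim1 Ctrl and triangles for Stim1 HT to Stim1 Ctrl. Atp2b2, Fxyd2 and Fxyd7 lie to the right, with triangles at -0.19, -0.50 and 0.30. Atp1b4 lies to the left, and Calb2 has its triangle at 5.01.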

How the data were processed

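RNAseq was performed by the authors on 3 enamel organ libraries, and the deposited values are raw counts of reads per gene symbol, with no normalization. Per the labels, FastQC, STAR and DESeq2 were used. The aligner version, genome build, annotation, counter and strand setting are not given in the sources used here. The methods of the study name a directional NEBNext kit and the labels a SMARTER kit. The smallest count listed is 1, and a gene at 0 in any library is not in the table. In 25 rows, with 0.154% of the counts, the symbol had become a date.

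Stim1 cKO was tested against Stim1 HT and Stim1 Ctrl together, as the study grouped them, with edgeR 4.0.16 in R 4.3.3 (TMM factors of 0.911, 0.975 and 1.13 for Stim1 Ctrl, Stim1 HT and Stim1 cKO, filterByExpr, quasi-likelihood test, Benjamini-Hochberg adjustment over 18702 genes). The common dispersion was 0.106 with 1 residual degree of freedom. DESeq2 1.42.0, RLE factors, library size scaling, no filter, an adjusted p under 0.05, other lengths and leaving out a control were the alternatives. Both tests were tested on simulated data, in which the controls shared the same mean for each gene, unlike the controls here, whose genotypes differ. Ratios of libraries have exact conditional binomial intervals, levels exact binomial intervals and shares Wilson intervals. Lengths are unions of exons in GENCODE M21 on GRCm38. Promoters are from RefSeq, with 10 windows for the 8 exchangers.

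Named were each exchanger, genes of the clearance list, defining markers, and for Slc24a1, Slc24a2 and Slc24a4 the 3 genes nearest in pattern. The members and lists were chosen with earlier results of these data known. Some genes that this rule allows are not reported here.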

Additional observations from a re-analysis of the deposited data

How the results depend on the processing

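With 1 library per genotype, p-values rest on the spread between Stim1 HT and Stim1 Ctrl, and intervals cover counting error only. Of all genes, 14 were called by edgeR, 1987 by DESeq2, 50 with RLE factors, 6 with library size scaling, 907 without the filter on low counts and 1811 at an adjusted p under 0.05 with no fold change minimum. Of the exchangers, edgeR called 0, DESeq2 called 2, RLE factors gave 1, library size scaling 0, no filter 1 and an adjusted p under 0.05 gave 2. For the clearance list these counts were 7 with DESeq2, 5 without the filter and 5 at an adjusted p under 0.05, against 0 otherwise. The cause of the differences between tools was not tested. Slc24a1 was the exchanger called with RLE factors and without the filter, and its adjusted p ranged from 4.18e-20 to 0.0199 over the alternatives. That of Slc24a2 ranged from 0.00207 to 0.0441, of Slc24a4 from 0.0136 to 0.0499 and of Slc8a3 from 0.0172 to 0.0821. Library size scaling moved the median log2 fold change of all genes by 0.26. Without Stim1 HT, the log2 fold change changed sign to -0.14 for Slc8a1 and -0.45 for Slc24a5, against 0.71 and 0.85 without Stim1 Ctrl, and over both left-out controls it lay between 1.55 and 1.89 for Slc24a4. Without division by length, the share of Slc8a3 in the NCX family was 60.5%, 84.4% and 83.4% in Stim1 cKO, Stim1 HT and Stim1 Ctrl, that of Slc24a4 in the NCKX family was 16.2% in Stim1 cKO (15.0 to 17.5) and 13.2% in Stim1 HT (11.4 to 15.4), with overlapping intervals, and the ratio of NCKX to NCX was 3.27, 0.945 and 0.677, with an interval in Stim1 HT of 0.871 to 1.03 that includes 1. With the longest transcript as length, the ratio in Stim1 HT was 1.10 (1.01 to 1.19). No paired analysis was possible because each genotype has 1 library.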
